A study of Homo sapiens with 8 samples.

Results

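Interferon-stimulated genes are the genes that cells switch on when interferon binds its receptors. A list of 42 of them, chosen by gene symbol, was followed through RNA sequencing of 8 human cancer cell lines, out of 58202 genes in the deposited files. The list was drawn up as known targets of interferon with earlier results of these files in view, so its levels and its differences between lines are given as a description. All 42 symbols were found, and 40 genes reached 1 in 2 lines or more in units of FPKM, which divide the fragments of a gene by its length and by the mapped total of the library. MX2 and XAF1 did not pass that filter and were not tested.

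The lung lines were H522 (non-small cell lung cancer), H661 (large cell lung cancer) and H146 (small cell lung cancer). They were set against 5 lines of other tissues: KLE (endometrial adenocarcinoma), HEC59 (endometrial carcinoma), COV318 (ovarian serous carcinoma), 1321N1 (astrocytoma, labelled Glial) and H716 (colorectal adenocarcinoma, labelled cecum). All lines express ERBB4 according to the series title and were grown for 48 hours in plates at passages between 3 and 15. No interferon, drug or other treatment is given in the labels. The series was built around the response to ibrutinib, a kinase inhibitor, but the labels do not assign a response to any line, so none was compared. Each line is a single tumour and was measured in 1 library, so a difference between 2 lines has no replicate error, and the order of neighbouring lines cannot be judged against a spread.

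Type I interferons act through the receptor chains IFNAR1 and IFNAR2 and the kinases JAK1 and TYK2. These act on STAT2, which works with IRF9 in a complex that binds a short promoter sequence, the interferon-stimulated response element, and starts transcription of the antiviral genes. Many tumour lines keep part of this set of genes on without added interferon, while others have lost it. The members act at many points in a viral life cycle: entry through membranes, sensing and destruction of viral RNA, supply of nucleotides, protein modification by ISG15 and transcription itself.

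The set was high in COV318, HEC59 and, at a lower level, KLE, and low in the 3 lung lines and H716. Over the 42 members the mean of log2(FPKM + 1) came to 0.96 for H522, 1.04 for H661 and 0.99 for H146, against 2.59 in KLE, 3.69 in HEC59, 3.92 in COV318, 1.94 in 1321N1 and 1.08 in H716. COV318 or HEC59 was the highest line for 35 of the 42 members. The top members at their peak were IFI27 and IFI6, small membrane proteins, in COV318 and IFITM3, a blocker of virus entry, in HEC59, at FPKM of 527, 480.4 and 287.

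Promoter sequences show how far the members share the response element. RefSeq promoter windows (GRCh38.p14, from 250 bases before to 50 bases after each start site) were found for 35 of the 42 members. The pattern GAAA, 2 bases of any kind, then GAAA, a strict form of the element, occurred on either strand in 24 of these 35 genes (68.6%), beside 1195 of all 27305 genes with such windows (4.38%). The stretches below are written from the upstream to the downstream end on the strand of the gene, with matches in capitals. ISG15, IFIT1, IFI6, IFI27, IFI44L and IFITM3 are shown because their levels differed most or lead the account of COV318 and HEC59. IFIT5 is shown as a gene with matches and a narrow range, and IFI35 and SP100 as genes without a match. IFI35 ran against the rest of the set, while SP100 had a Pearson correlation of 0.74 over the lines with the mean of the other members. For IRF9, also without a match, it was 0.96. The choice thus does not link a lack of matches to a pattern across lines.
ISG15 at chr1:1013360-1013429, plus strand: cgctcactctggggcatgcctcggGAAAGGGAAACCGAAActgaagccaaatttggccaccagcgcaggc
IFIT1 at chr10:89392490-89392559, plus strand: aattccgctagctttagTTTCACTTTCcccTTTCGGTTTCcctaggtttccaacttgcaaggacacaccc
IFI6 at chr1:27672246-27672315, minus strand: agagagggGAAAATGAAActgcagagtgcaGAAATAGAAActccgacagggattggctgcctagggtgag
IFI27 at chr14:94110611-94110680, plus strand: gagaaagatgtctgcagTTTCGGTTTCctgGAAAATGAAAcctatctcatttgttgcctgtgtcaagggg
IFI44L at chr1:78620345-78620414, plus strand: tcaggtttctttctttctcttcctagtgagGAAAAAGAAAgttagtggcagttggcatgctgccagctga
IFITM3 at chr11:320861-320930, minus strand: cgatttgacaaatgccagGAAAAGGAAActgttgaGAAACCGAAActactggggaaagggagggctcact
IFIT5 at chr10:89414498-89414567, plus strand: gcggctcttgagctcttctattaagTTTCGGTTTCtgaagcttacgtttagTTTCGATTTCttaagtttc
IFI35 at chr17:43006714-43006783, plus strand: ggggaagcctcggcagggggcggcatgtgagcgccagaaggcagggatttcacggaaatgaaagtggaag
SP100 at chr2:230416686-230416755, plus strand: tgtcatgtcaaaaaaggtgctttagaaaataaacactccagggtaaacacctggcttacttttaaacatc
The 2 matches in the ISG15 stretch overlap each other, and matches that begin and end in TTTC lie on the opposite strand. The 11 members whose windows held no match were CMPK2, HERC6, IFI35, IRF9, OAS1, SAMD9L, SP100, STAT2, TRIM38, UBE2L6 and XAF1. A second pattern, TTCNNNGAA on either strand, a form known from genes that answer to interferon gamma, occurred in 11 of the 35 genes (31.4%) beside 2560 of 27305 (9.38%), and 3 of those 11, IFI35, IRF9 and OAS1, had no match to the first pattern. A match is a description of letters in the window and was not tied to any measured binding.

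Between 12205 and 13300 genes per library reached an FPKM of 1. Absolute depth is unknown, since FPKM holds no read totals. From the steps in which low values moved, depth relative to KLE ranged from 1.17 in COV318 to 2.69 in 1321N1. By these steps the lines were taken as sets, with H522, H661, KLE and H716 on one side and 1321N1, HEC59, COV318 and H146 on the other. In pairs of lines within a set, a mean of 20.3% of low values shared the commonest ratio, beside 10.9% between sets. The pairs overlapped, with 17.8% for KLE and COV318, between sets, and 15.6% for H522 and KLE, within a set. The division is thus not a clean one. It also partly followed the mean member level. On one side H522, H661 and H716 were at 0.96, 1.04 and 1.08, with only KLE higher, at 2.59. On the other 1321N1, HEC59 and COV318 were at 1.94, 3.69 and 3.92, with only H146 low, at 0.99. The part of the sets in the member levels was not tested. Of the tissue markers, the intestinal gene CDH17 was at 137 FPKM in H716. Other intestinal markers were low there, with CDX2 at 1.31, VIL1 at 1.07, LGALS4 at 0.376 and CDX1 listed at 0. VIL1 was higher in H146, at 8.74, and LGALS4 in KLE, at 0.443. The gynaecologic-tract factor PAX8 was at 45.7 in KLE, 185 in HEC59 and 72.6 in COV318, while the surfactant gene SFTPA1 was listed at 0 in all lines. The lung factor NKX2-1 was at 11.2 FPKM in H661 and at most 0.285 in any other line, H522 and H146 included. The glial gene GFAP was at 3.10 in 1321N1 and 1.57 in H146, while AQP4 was listed at 0 in 1321N1 and was at 4.46 in H146, and OLIG1 was listed at 0 in all lines. Of 12 immune cell markers, 0 to 2 per line reached an FPKM of 1. They summed to 6.46 FPKM for H522, 15.8 for H661 and 2.10 for H146, against 4.70 in KLE, 1.05 in HEC59, 5.41 in COV318, 14.5 in 1321N1 and 13.8 in H716. CD3D was listed at 0 in all lines and PTPRC reached at most 0.967. In a bulk culture, fewer cells that express a gene and less RNA per cell cannot be told apart.

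**Figure D1:**
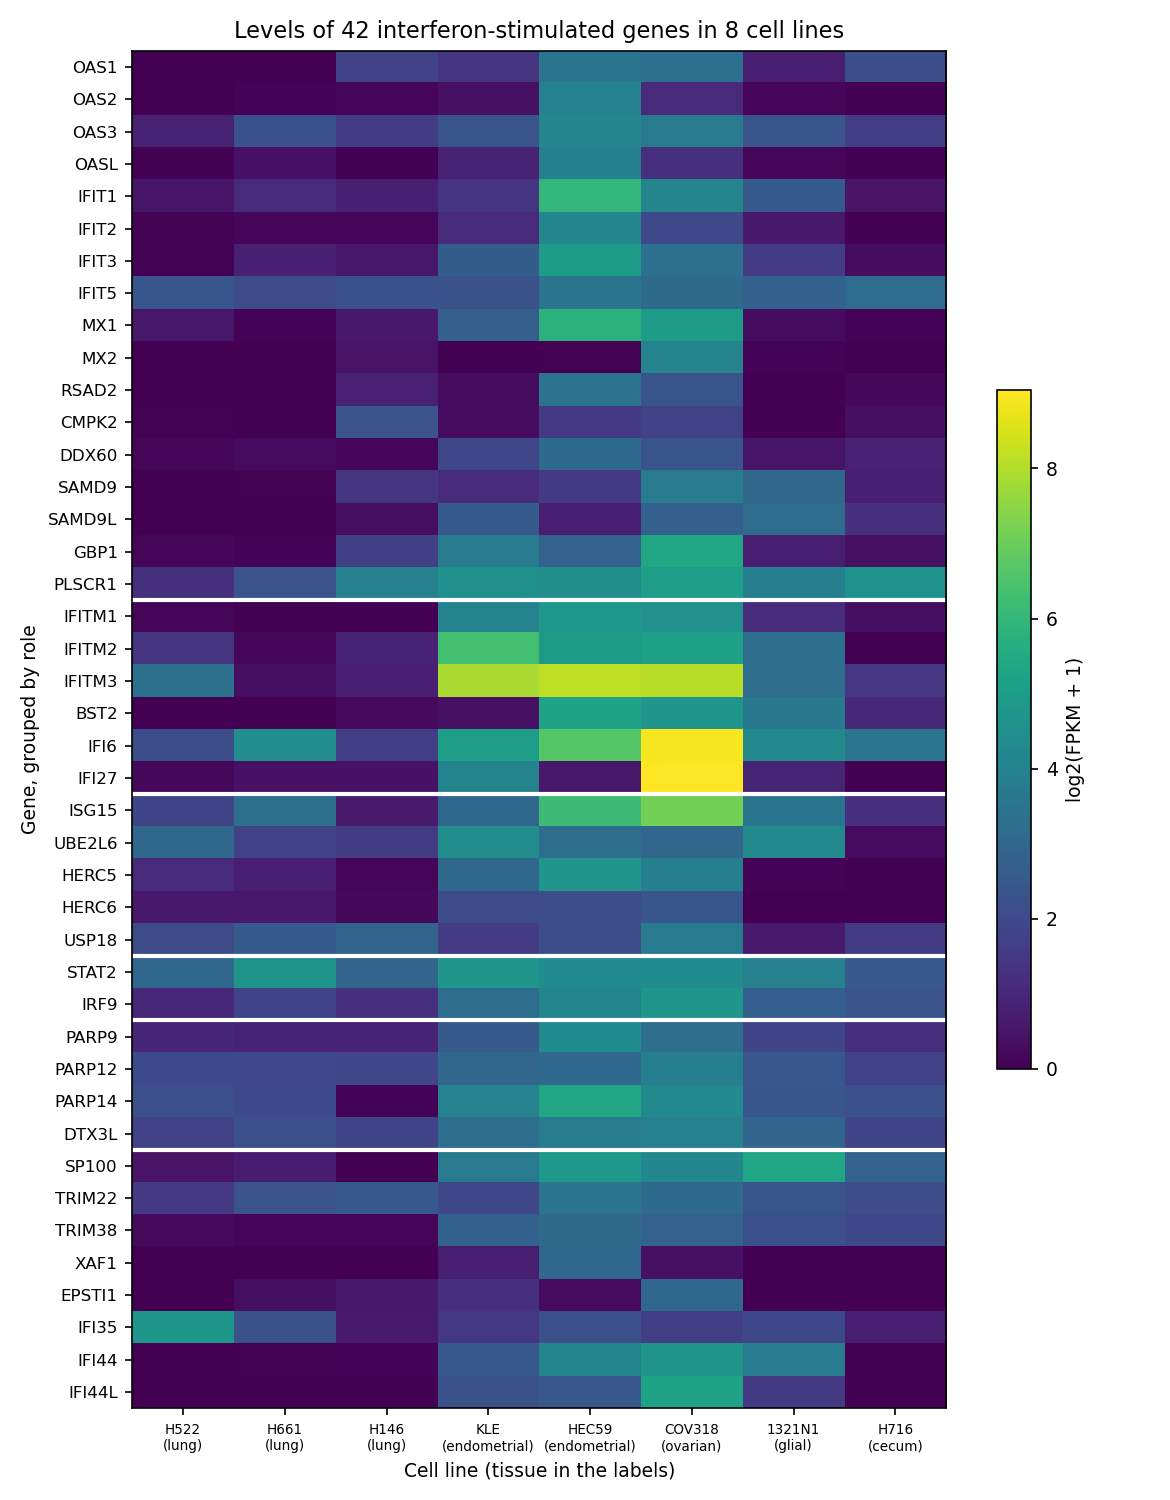
Level of each of the 42 genes (rows, grouped by role, white lines between roles) in each of the 8 lines (columns), as log2(FPKM + 1) on the colour scale. The HEC59 and COV318 columns are bright over most rows, the 3 lung columns and H716 are dark, and IFIT5 (3.34 to 10.2 FPKM) runs evenly across.

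The signalling factors were present in every line. STAT2 (ENSG00000170581) had an FPKM of 7.29 in H522, 24.4 in H661 and 6.76 in H146, against 25.1 in KLE, 19.5 in HEC59, 20.1 in COV318, 14.2 in 1321N1 and 4.80 in H716. H661 stood with the high lines for this gene, and the lung lines overlapped the others. IRF9 (ENSG00000213928), the DNA-binding partner of the complex, had 1.04 FPKM in H522, 2.64 in H661 and 1.31 in H146, against 8.28 in KLE, 16.6 in HEC59, 25.6 in COV318, 5.47 in 1321N1 and 3.93 in H716. All 3 lung lines lay below all other lines for IRF9, and its order over the 8 lines was the order of the mean of the other members (Spearman's rho 1.0, a description over 8 lines that share their library with that mean). In GENCODE v29, 82.7% of the 50-base windows of IRF9 transcripts also occur in AL136295.5, so reads of IRF9 may have been divided between them.

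ISG15 (ENSG00000187608) is a ubiquitin-like protein that UBE2L6 and HERC5 attach to other proteins and USP18 removes. It had 2.72 FPKM in H522, 9.04 in H661 and 0.581 in H146, against 7.16 in KLE, 71.8 in HEC59, 139 in COV318, 10.4 in 1321N1 and 1.38 in H716. HEC59 and COV318 were far above the other 6 lines, among which the lung lines overlapped the rest. UBE2L6, the conjugating enzyme, followed another order, with 7.37 FPKM in H522, 2.41 in H661 and 2.06 in H146, against 20.7 in KLE, 8.67 in HEC59, 6.87 in COV318, 18.6 in 1321N1 and 0.213 in H716. KLE and 1321N1 were its highest lines and H716 had almost none.

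HERC5, the ligase for ISG15 in human cells, had 1.14 FPKM in H522, 0.711 in H661 and 0.124 in H146, against 7.07 in KLE, 25.5 in HEC59, 14.1 in COV318, 0.0631 in 1321N1 and 0 in H716. Its neighbour HERC6, which takes that part in mice, had 0.533 FPKM in H522, 0.542 in H661 and 0.152 in H146, against 3.22 in KLE, 3.39 in HEC59, 4.39 in COV318, 0.00513 in 1321N1 and 0.0107 in H716. Both HERC genes were highest in KLE, HEC59 and COV318, and both were lower in 1321N1 and H716 than in any lung line. USP18, which also restrains the type I receptor, went its own way, with 3.24 FPKM in H522, 4.85 in H661 and 6.44 in H146, against 2.06 in KLE, 3.45 in HEC59, 11.9 in COV318, 0.589 in 1321N1 and 2.03 in H716. Of the USP18 transcript windows, 23.4% occur in other genes, most of them in USP41.

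IFI27, IFITM3 and IFI6, all membrane proteins, had the widest ranges, 9.02, 7.84 and 7.25 on the log2(FPKM + 1) scale. IFITM3 (ENSG00000142089), which stops viruses from fusing with endosomal membranes, had 9.21 FPKM in H522, 0.253 in H661 and 0.711 in H146, against 235 in KLE, 287 in HEC59, 274 in COV318, 8.40 in 1321N1 and 1.69 in H716. The 3 gynaecologic lines lay close together, and H522 was close to 1321N1. IFITM2 had 1.62 FPKM in H522, 0.105 in H661 and 0.834 in H146, against 77.5 in KLE, 29.7 in HEC59, 35.3 in COV318, 8.65 in 1321N1 and 0 in H716. IFITM1 had 0.107 FPKM in H522 and was listed at 0 in H661 and H146, against 15.3 in KLE, 27.2 in HEC59, 22.9 in COV318, 1.23 in 1321N1 and 0.253 in H716. KLE thus led for IFITM2 and HEC59 for IFITM1 and IFITM3. Between 0.965% and 23.1% of the windows of these 3 genes are shared with other transcripts, the most for IFITM3, so their levels carry that uncertainty.

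BST2, or tetherin, which holds budding viruses on the cell surface, was listed at 0 in H522 and H661 and had 0.187 FPKM in H146, against 0.327 in KLE, 36.5 in HEC59, 25.2 in COV318, 11.7 in 1321N1 and 1.03 in H716. KLE, high for all 3 IFITM genes, was close to the lung lines here. IFI6 (ENSG00000126709) had 3.37 FPKM in H522, 20.7 in H661 and 2.17 in H146, against 32.5 in KLE, 101 in HEC59, 480.4 in COV318, 18.2 in 1321N1 and 10.8 in H716. IFI27 (ENSG00000165949) had 0.134 FPKM in H522, 0.345 in H661 and 0.371 in H146, against 15.5 in KLE, 0.527 in HEC59, 527 in COV318, 0.925 in 1321N1 and 0.0173 in H716. HEC59, high for most of the set, was among the low lines for IFI27.

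The IFIT proteins bind the ends of viral RNA and block its translation. IFIT1 had 0.410 FPKM in H522, 1.15 in H661 and 0.734 in H146, against 1.64 in KLE, 62.1 in HEC59, 16.2 in COV318, 4.96 in 1321N1 and 0.395 in H716. IFIT2 had 0.0295 FPKM in H522, 0.0762 in H661 and 0.121 in H146, against 1.17 in KLE, 17.0 in HEC59, 2.97 in COV318, 0.525 in 1321N1 and 0.0117 in H716. For both, HEC59 was the highest line, followed by COV318, and H716 the lowest. IFIT3 had 0.0433 FPKM in H522, 0.723 in H661 and 0.516 in H146, against 5.39 in KLE, 29.6 in HEC59, 8.99 in COV318, 2.08 in 1321N1 and 0.224 in H716. IFIT5 had 4.34 FPKM in H522, 3.34 in H661 and 3.84 in H146, against 3.71 in KLE, 10.2 in HEC59, 7.65 in COV318, 5.93 in 1321N1 and 7.90 in H716. IFIT5 was thus near its family's other members in COV318 and above all of them in the lung lines and H716, although the stretch printed above holds 2 matches to the response element and the first bases of another.

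The OAS enzymes make a short oligoadenylate that activates RNase L, and OASL is a relative without that activity. OAS3 was the most even, from 0.828 FPKM in H522 to 16.3 in HEC59 with a median of 3.96 over the 8 lines. OAS1 ranged from 0 in H522 and H661 to 10.4 in HEC59, and H716 had 3.53. OAS2 reached 14.9 in HEC59 and OASL 13.96 in the same line, while no other line passed 1.36 for either gene. HEC59 was the highest line for all 4.

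MX1 (ENSG00000157601), a dynamin-like GTPase that traps viral nucleocapsids, had 0.514 FPKM in H522, 0.0585 in H661 and 0.538 in H146, against 5.70 in KLE, 55.5 in HEC59, 29.8 in COV318, 0.237 in 1321N1 and 0.0618 in H716. Its neighbour MX2, which acts against HIV, had 15.6 FPKM in COV318 and no more than 0.390 in any other line, that value being from H146. HEC59, with the highest MX1, had 0.0430 for MX2. The plots by family show this split between the paralogs.

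**Figure D2:**
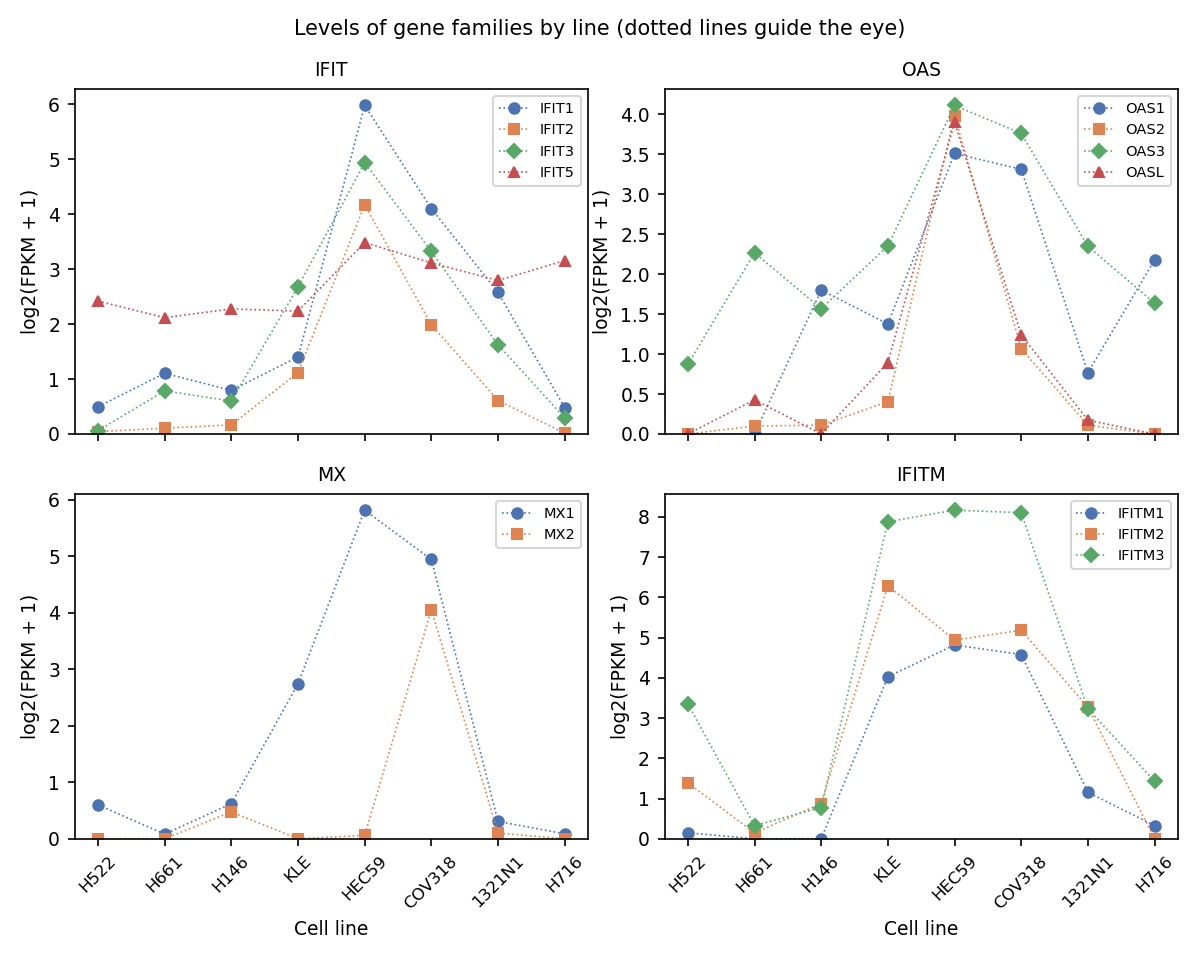
Level of the IFIT, OAS, MX and IFITM genes (each point 1 gene, log2(FPKM + 1)) in each of the 8 lines, with dotted lines only to guide the eye. HEC59 tops the IFIT and OAS panels and COV318 is alone above background for MX2 (15.6 FPKM), while IFITM genes are high in KLE, HEC59 and COV318.

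GBP1, a guanylate-binding protein that coats intracellular bacteria, had 0.120 FPKM in H522, 0.0760 in H661 and 2.28 in H146, against 11.9 in KLE, 6.14 in HEC59, 41.8 in COV318, 0.689 in 1321N1 and 0.320 in H716. COV318 was highest and H146 was above 1321N1 and H716. Of GBP1 windows 13.3% are shared with other transcripts, most with the pseudogene GBP1P1. PLSCR1, a phospholipid scramblase, was present in every line, with 1.33 FPKM in H522, 3.94 in H661 and 14.7 in H146, against 22.3 in KLE, 20.9 in HEC59, 32.0 in COV318, 14.1 in 1321N1 and 23.2 in H716. Here H716 stood with the high lines and H146 was just above 1321N1. RSAD2 (viperin), which makes a chain-terminating nucleotide, ranged from 0 in H522, H661 and 1321N1 to 9.95 in HEC59. CMPK2, its neighbour and a mitochondrial nucleotide kinase, was highest in H146 at 4.00 FPKM and was listed at 0 in H661 and 1321N1. The helicase DDX60 ranged from 0.116 in H522 to 7.61 in HEC59.

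SAMD9 and SAMD9L, neighbouring genes for proteins that restrict poxviruses, were highest in COV318 (12.1 FPKM for SAMD9) and in 1321N1 (8.05 for SAMD9L). The lowest lines were H522 for SAMD9, at 0.00645, and H661 for SAMD9L, listed at 0. 1321N1 was second for SAMD9, at 6.99, while HEC59 had 1.91 for SAMD9 and 0.704 for SAMD9L.

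PARP9 and DTX3L form a complex that modifies histones and raises the response to interferon, and PARP12 and PARP14 add single ADP-ribose units to proteins. PARP14 had 3.59 FPKM in H522, 3.09 in H661 and 0.0722 in H146, against 14.95 in KLE, 38.5 in HEC59, 19.0 in COV318, 4.30 in 1321N1 and 3.91 in H716. DTX3L had 2.42 FPKM in H522, 3.65 in H661 and 2.61 in H146, against 8.57 in KLE, 13.0 in HEC59, 14.2 in COV318, 6.80 in 1321N1 and 2.70 in H716. For PARP14 the lung lines lay below all others, and for DTX3L H661 overlapped H716. PARP12 had 3.11 FPKM in H522, 2.99 in H661 and 2.82 in H146, against 7.02 in KLE, 7.45 in HEC59, 13.8 in COV318, 4.53 in 1321N1 and 2.36 in H716. PARP9 ranged from 0.854 in H146 to 19.9 in HEC59. The 4 genes were at 0.854 FPKM or more in every line, except PARP14 in H146.

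SP100 (ENSG00000067066), a scaffold of nuclear bodies, had 0.407 FPKM in H522, 0.602 in H661 and 0 in H146, against 12.4 in KLE, 27.6 in HEC59, 17.7 in COV318, 40.3 in 1321N1 and 6.10 in H716. The groups were wide apart, and the highest line was 1321N1, which was intermediate for the set as a whole. TRIM38 (ENSG00000112343), a ubiquitin ligase that tunes antiviral signalling, had 0.161 FPKM in H522, 0.0846 in H661 and 0.117 in H146, against 5.94 in KLE, 7.77 in HEC59, 6.12 in COV318, 3.57 in 1321N1 and 2.89 in H716. TRIM22, an antiviral relative, had a narrow range, with 1.83 FPKM in H522, 3.97 in H661 and 4.68 in H146, against 2.82 in KLE, 10.3 in HEC59, 7.63 in COV318, 4.06 in 1321N1 and 3.45 in H716. Of TRIM22 windows 15.9% are shared with other transcripts, and of SP100 windows 7.69%.

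IFI44L, a neighbour of IFI44, was listed at 0 in H522, H661, H146 and H716, against 3.71 FPKM in KLE, 4.49 in HEC59, 37.1 in COV318 and 1.93 in 1321N1. IFI44 ranged from 0 in H522 and H716 to 25.4 in COV318, with 12.3 in 1321N1. EPSTI1, first described in the interplay of epithelium and stroma, reached 7.22 in COV318 and was listed at 0 in H522, 1321N1 and H716. XAF1, a promoter of cell death, reached 7.31 in HEC59 and no more than 0.674, in KLE, elsewhere, and 64.6% of its transcript windows are shared with PRAL. IFI35 (ENSG00000068079), which pairs with NMI, was the member that ran against the rest: 26.8 FPKM in H522, 3.76 in H661 and 0.575 in H146, against 1.78 in KLE, 3.63 in HEC59, 2.22 in COV318, 2.92 in 1321N1 and 0.689 in H716.

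Counted at an FPKM of 1 or more, 8 members were present in all lines and 34 in some. H522 had 16 of them present, H661 15 and H146 15, against 35 in KLE, 38 in HEC59, 41 in COV318, 26 in 1321N1 and 19 in H716. Members listed at 0 in at least 1 line numbered 16. The set summed to 84.9 FPKM for H522, 99.12 for H661 and 68.45 for H146, against 586.2 in KLE, 1066 in HEC59, 1955 in COV318, 230.9 in 1321N1 and 90.73 in H716. The range over the lines had a median of 3.94 on the log2(FPKM + 1) scale among the 40 members tested, beside 1.94 among all 15650 genes tested. It was above 4 for 19 of the 40, beside 11.7% of all genes tested, and also for MX2, which was not tested. It was below 2 for 2, IFIT5 and TRIM22. Among all genes tested, 11.5% were highest in COV318 and 9.94% in HEC59.

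**Figure D3:**
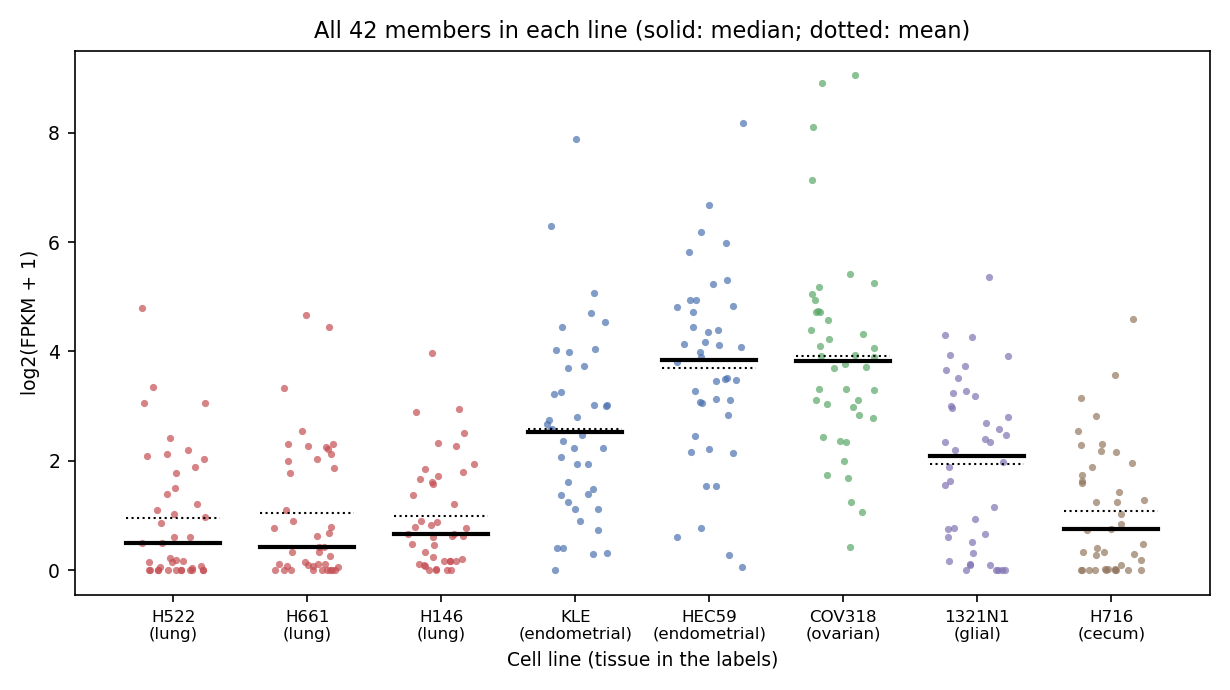
Each point is 1 of the 42 genes, as log2(FPKM + 1), in each of the 8 lines, with solid bars for the median and dotted bars for the mean. The medians are 0.49, 0.43 and 0.66 in H522, H661 and H146, against 2.52 in KLE, 3.85 in HEC59, 3.83 in COV318, 2.08 in 1321N1 and 0.75 in H716.

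Set against the median of the other 7 lines, with a difference of 2 or more on the log2(FPKM + 1) scale as the limit and no test, HEC59 was higher for 22 of the 40 members and COV318 for 21. Over all genes tested, 3.64% were past this limit in HEC59 and 4.12% in COV318. KLE was higher for 9 members (background 4.72%), led by IFITM2, IFITM3 and IFITM1, and 1321N1 for 4, IFI44, BST2, SP100 and SAMD9L (background 4.89%). No member was lower by this limit in those 4 lines (backgrounds 1.09% in KLE, 2.09% in 1321N1, 2.63% in HEC59 and 1.02% in COV318). H146 was lower for 8 members (background 4.09%), H661 for 6 (1.96%), H522 for 4 (2.86%) and H716 for 4 (3.15%). The single members higher in a line of this low group were IFI35 in H522 (background 2.60%) and CMPK2 in H146 (background 5.04%), and none was higher in H661 (background 3.58%) or H716 (background 4.76%). With a pseudocount of 5 in place of 1, the counts were 13 in HEC59 and 11 in COV318.

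COV318 and HEC59, paired after their values were seen, had the set at like overall levels but led for different genes. With a difference of 1 or more on the log2(FPKM + 1) scale as the limit, COV318 was higher for 8 of the 40 members, IFI27 (8.43), IFI44L (2.79), EPSTI1 (2.76), GBP1 (2.59), IFI6 (2.24), SAMD9 (2.18), SAMD9L (2.01) and USP18 (1.54), and 20.0% of all genes tested were higher by as much. It was lower for 7, OAS2 (-2.92), OASL (-2.66), IFIT2 (-2.18), IFIT1 (-1.88), IFIT3 (-1.62), RSAD2 (-1.11) and PARP9 (-1.10), beside 11.0% of all genes. The share of members past the limit was 20.0% in the higher direction, equal to its background, and 17.5% in the lower, beside 11.0%. These counts are not read as a trait of the set, and the genes on each side are named as a description. The median difference was -0.22 for the members and 0.15 for all genes tested. MX2 (4.00) and XAF1 (-2.63) were also past the limit but had not passed the filter. IFITM3, STAT2 and DTX3L were within 0.12 of equality. With values above 100000 left out of the sum, mitochondrial transcripts made up 9.85% of the summed FPKM in COV318 and 16.1% in HEC59. HEC59 held 1 such value and COV318 0. The part of mitochondrial transcripts in these differences was not tested.

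**Figure D4:**
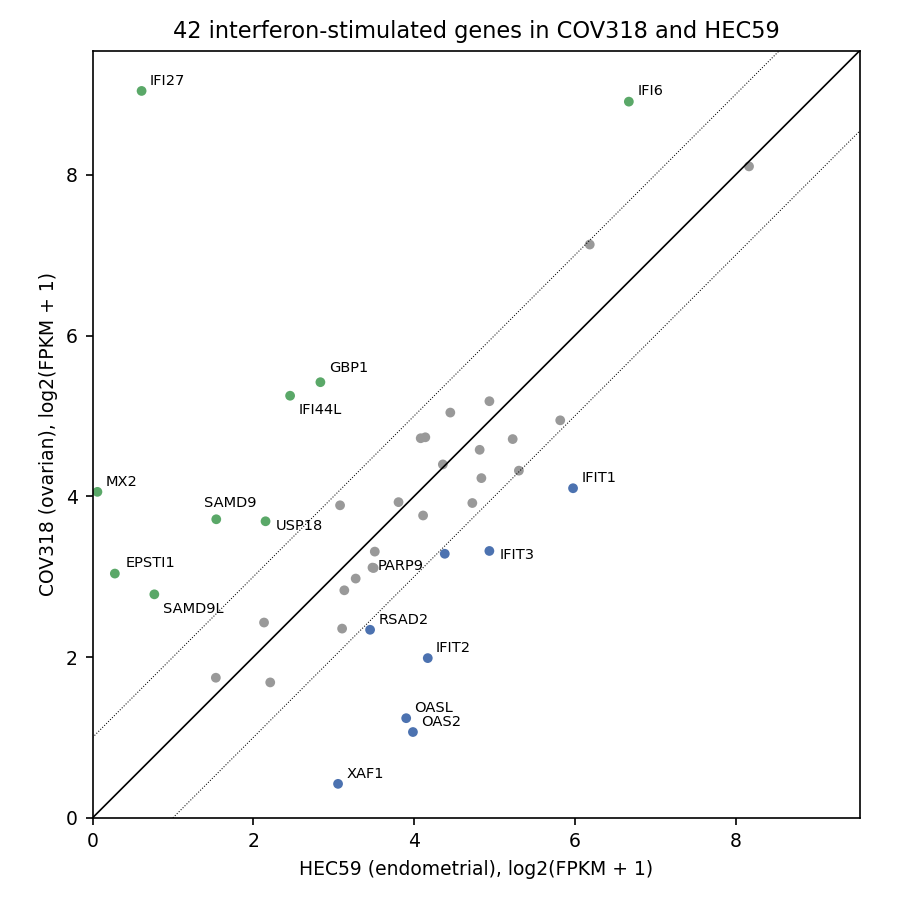
Level of each of the 42 genes in COV318 (vertical axis) against HEC59 (horizontal axis), both as log2(FPKM + 1), with a solid line of equality and dotted lines at a difference of 1. IFI27 and MX2 sit far above the lines at almost no HEC59 level, while OAS2, OASL and XAF1 sit far below.

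A comparison of the lung lines with the remaining 5 was made by limma on log2(FPKM + 1), fitted over all 15650 genes that passed the filter, with Benjamini-Hochberg adjustment over them. No member passed an adjusted p of 0.05, where 0.0192% of all genes passed as higher and 0.00639% as lower. The means of 37 members were lower in lung lines and those of 3, IFI35, USP18 and CMPK2, higher, and the median log2 difference was -1.71, beside -0.02 for all genes tested. At an unadjusted p under 0.05, 17 members were lower and none higher, against backgrounds of 3.04% and 2.90%. The 3 lung lines lay below all others for 9 members (background 2.23%) and above all others for none (background 2.07%). The 9 were BST2, DDX60, IFITM1, IRF9, PARP14, PARP9, SAMD9L, SP100 and TRIM38. All of these but IRF9 and PARP14 were under an FPKM of 1 in every lung line. They passed the filter through other lines only and could not have lain above all others in lung lines. The counts of lower and higher members, at an unadjusted p too, were thus not equally open. For BST2, DDX60, IFITM1 and SAMD9L the nearest other line was itself under an FPKM of 1. It had 0.327 (KLE), 0.434 (1321N1), 0.253 (H716) and 0.704 (HEC59), beside highest lung values of 0.187, 0.200, 0.107 and 0.266. For PARP14 the nearest values were 3.59 in H522 and 3.91 in H716.

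The member with the smallest p was SP100, at a mean log2(FPKM + 1) of 0.39 ± 0.35 in lung lines and 4.20 ± 0.98 in the other lines (SD, n = 3 and 5). Its log2 difference was -3.81 with a standard error of 0.57 and a limma adjusted p of 0.0893. TRIM38 averaged 0.16 ± 0.05 in lung lines and 2.58 ± 0.49 in the others, a difference of -2.42 with a standard error of 0.40 and a limma adjusted p of 0.105. PLSCR1 came next at -2.01 with a standard error of 0.58, with H146 inside the range of the other lines, and IRF9 at -2.05 with a standard error of 0.59, each with a limma adjusted p of 0.588. The largest difference, that of IFITM3, was -4.28 with a standard error of 1.64 and a limma adjusted p of 0.794, and the other lines themselves ran from 1.69 to 287 FPKM. SP100 and TRIM38 were known from earlier results of these files and are no independent support for the list.

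H716 was as low as the lung lines for much of the set. Leaving out H716 widens the lung difference by construction, since it was among the low lines. Without H716, 26 members had an unadjusted p under 0.05 and the lung lines lay below all others for 20. SP100 then passed at a log2 difference of -4.15 and a limma adjusted p of 0.0261. For the alternative fits, shares over all genes were not counted at these limits. Their counts are therefore not read as a trait of the members. The count of 17 at an unadjusted p under 0.05 was 10 without H522, 9 without H661, 10 without H146, 11 without HEC59 and 11 without COV318, and it was 11 with the read-step set as a term. Within the read-step set of H522 and H661 against KLE and H716 the median member difference was -0.80 (all genes 0.05), and within that of H146 against HEC59, COV318 and 1321N1 it was -1.90 (all genes -0.20). The members' median was below 0 in both sets, by values with no test. Of 6 epithelial markers, 5 had lower means in lung lines, with a median log2 difference of -1.74, and all 4 Mullerian markers tested had lower means, with a median of -2.57. The Mullerian markers summed to 1.79 FPKM for H522, 0.00081 for H661 and 1 for H146, against 99.0 in KLE, 252 in HEC59, 114 in COV318, 5.91 in 1321N1 and 0.745 in H716. The part of either list in the member differences was not tested.

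**Figure D5:**
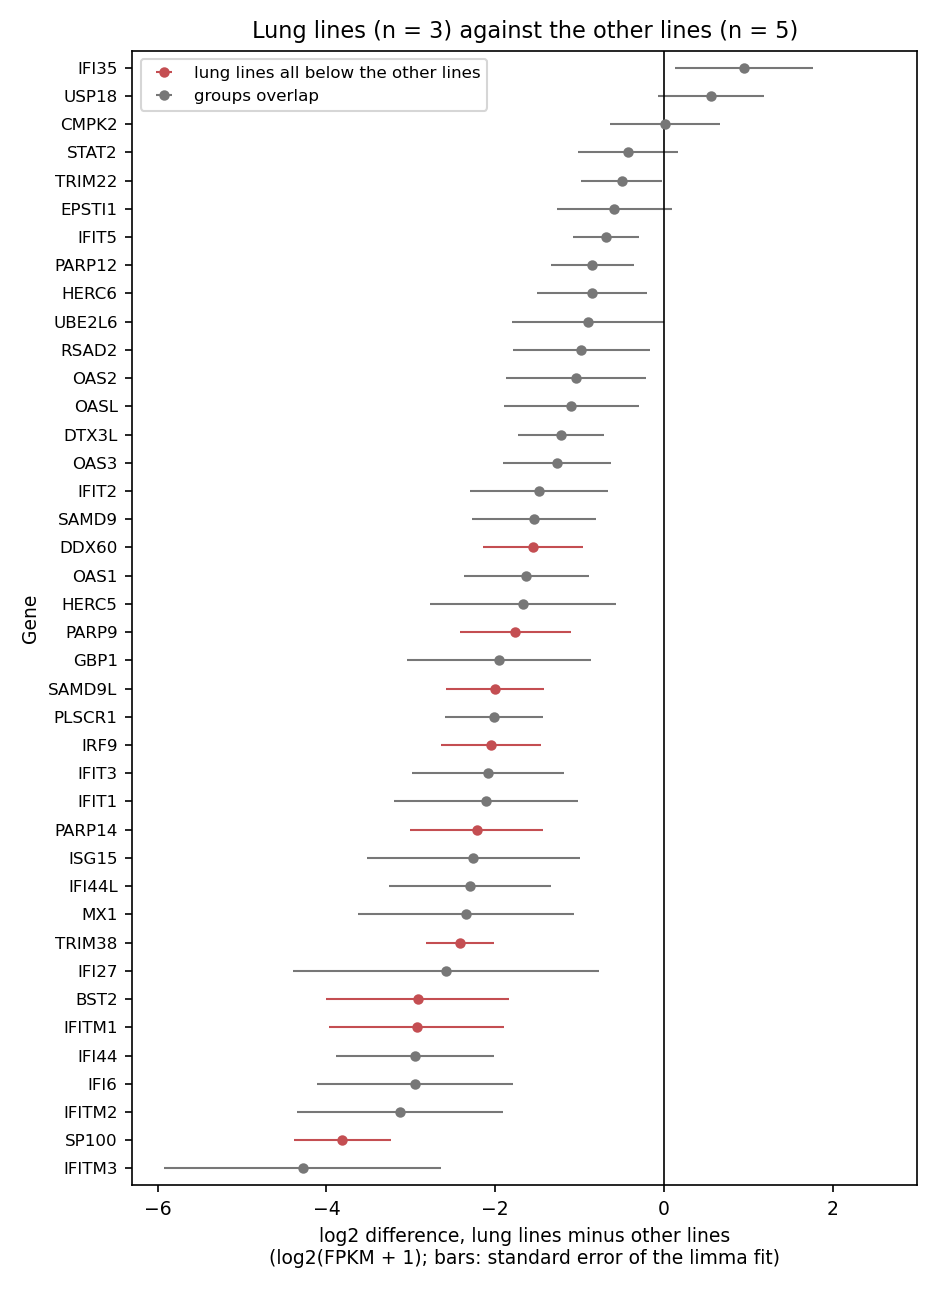
Log2 difference of lung lines (n = 3) minus the other lines (n = 5) for the 40 members tested, with bars for the standard error of the limma fit. Red points mark the 9 members for which every lung line lay below every other line, and IFI35, USP18 and CMPK2 are the 3 points right of 0.

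The endometrial lines KLE and HEC59 were compared with the other 6 lines in the same way. No member passed an adjusted p of 0.05 (background 0.00639% higher and 0.00% lower). The means of 37 members were higher and those of 3, USP18, IFI35 and SAMD9, lower, with a median log2 difference of 1.49, beside -0.11 for all genes tested. That median was 2.28 without KLE and 1.04 without HEC59. At an unadjusted p under 0.05, 13 members were higher (background 2.42%) and none lower (background 2.40%). For no member did both endometrial lines lie above all others (background 2.43%) or below them (background 4.53%). COV318, as high as HEC59, is among the other lines. IFITM1 averaged 4.42 ± 0.56 on the log2(FPKM + 1) scale in endometrial lines and 1.03 ± 1.79 in the others (SD, n = 2 and 6), and IFITM3 8.02 ± 0.20 and 2.87 ± 2.85. The differences were 3.39 with a standard error of 1.14 and 5.15 with a standard error of 1.73, each with a limma adjusted p of 0.827. Leaving COV318 out thus widens the endometrial difference by construction. In fits that leave out a line, the share of all genes with an unadjusted p under 0.05 was not counted. Counts of members from those fits are not read as a trait of the set. Without COV318 both genes passed, IFITM1 at 4.10 with a limma adjusted p of 0.0375 and IFITM3 at 6.20 with 0.0461. In that fit 22 members had an unadjusted p under 0.05. Without HEC59 that count was 1. Within the read-step sets the median member difference was 1.5 for KLE against H522, H661 and H716 and 1.48 for HEC59 against 1321N1, COV318 and H146, with no test. The 2 comparisons use the same lines and are not independent of each other. Of 6 epithelial markers, 6 had higher means in endometrial lines, with the summed FPKM at 2250 in KLE and 550.0 in HEC59, against 30.3 in H522, 43.4 in H661, 374 in H146, 254 in COV318, 16.0 in 1321N1 and 77.6 in H716. All 4 Mullerian markers had higher means, each at an unadjusted p under 0.05 by limma, with a median log2 difference of 3.66. The part of both lists in the member differences was not tested.

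KLE and HEC59 differed in what they held of the set. HEC59 had the OAS, IFIT and MX1 genes high, while KLE had IFITM2 at 77.5 FPKM, UBE2L6 at 20.7 and IFI27 at 15.5, each above its HEC59 level of 29.7, 8.67 and 0.527.

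Each member's Pearson correlation with the mean of the others over the 8 lines, given as a description since all values of a line share a library, had a median of 0.855 and was above 0.7 for 29 of 40 members (72.5%). Of the 15610 other genes tested, 563 (3.61%) had an r above 0.7 with the mean of the members, and their median was -0.02. DTX3L (0.98), IFITM1 (0.97), PARP9 (0.96) and IRF9 (0.96) followed the set most closely, while IFI35 (-0.13), USP18 (0.24) and CMPK2 (0.38) did so least. Among genes outside the list, DDX58, which encodes the RNA sensor RIG-I, had an r of 0.73 with the member mean and TYK2 0.70, while IFNAR1 had 0.03, JAK1 0.21 and IFNAR2 -0.27.

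In the GENCODE v29 annotation, 23 of the 42 members lie in 9 clusters of neighbouring members, on a total of 15 chromosomes for all 42. IFIT1, IFIT2 and IFIT3 on chromosome 10 had pairwise r of 0.93 to 0.96 over the 8 lines, and IFIT5, in the same cluster, 0.58 to 0.72 with them. The IFITM genes on chromosome 11 had 0.93 to 0.97, HERC5 and HERC6 on chromosome 4 had 0.97, and PARP9 and DTX3L on chromosome 3 had 0.93. MX1 and MX2 on chromosome 21 had 0.51. Over all 780 pairs of tested members the median r was 0.67, so a neighbour's r is to be read beside that value.

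Interferons themselves were nearly absent from the RNA. Of 10 interferon genes, only IFNL1, a type III interferon, reached an FPKM of 1, with 1.30 in HEC59. IFNB1 had 0.837 FPKM in HEC59, 0.323 in COV318, 0.0516 in H146 and was listed at 0 in the other 5 lines. The summed FPKM of these genes was 2.88 in HEC59 and 0.709 in COV318, and at most 0.162 in any other line. IFNA1 and IFNA2 were listed at 0 in all lines.

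Of the receptors and their kinases, IFNAR1, IFNAR2 and JAK1 had the low correlations with the members given above, and TYK2 a higher one. IFNAR1 had 39.4 FPKM in H522, 51.1 in H661 and 21.5 in H146, against 86.1 in KLE, 16.5 in HEC59, 55.0 in COV318, 43.1 in 1321N1 and 34.6 in H716, so HEC59 was the lowest line. IFNAR2 was 22.5 in H522, its highest line, and 4.73 in HEC59. IFNLR1, the receptor chain for type III interferons, had 1.08 FPKM in H522, 0.222 in H661 and 0.871 in H146, against 2.59 in KLE, 0.269 in HEC59, 4.32 in COV318, 0.00845 in 1321N1 and 0 in H716. Of 9 receptor and kinase genes tested in lung lines, none passed in either direction, 6 had lower and 3 higher means, and the median log2 difference was -0.08. In endometrial lines none passed and the median was -0.03. By limma, 0 of the 9 had an unadjusted p under 0.05 in either comparison (backgrounds 2.40% to 3.04%).

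Of 8 inhibitors of the pathway tested, none passed in either comparison. The median log2 difference was 0.14 in lung lines and 0.07 in endometrial lines. By limma, 0 of the 8 had an unadjusted p under 0.05 in either comparison (backgrounds 2.40% to 3.04%). SOCS3, a feedback inhibitor of cytokine receptors, had 9.21 FPKM in H522, 3.12 in H661 and 0.618 in H146, against 6.85 in KLE, 2.86 in HEC59, 2.68 in COV318, 11.1 in 1321N1 and 0.0152 in H716. PTPN6, a phosphatase, was above 1 FPKM in the 3 lung lines (1.11 to 9.43) and in HEC59 (7.10) and at most 0.439 in the remaining lines.

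Among 16 tested genes that sense nucleic acids and lead to interferon, none passed in lung lines, 10 had lower and 6 higher means, and the median log2 difference was -0.28. At an unadjusted p under 0.05 by limma, 2 of the 16 were lower (background 3.04%) and 0 higher (background 2.90%). In endometrial lines none passed, and the median was 0.18. By limma, 0 of the 16 had an unadjusted p under 0.05 there (backgrounds 2.42% higher and 2.40% lower). Both endometrial lines lay below all others for 3 of the 16, RNASEH2A, RNASEH2B and RNASEH2C (background 4.53%), and above all others for 0 (background 2.43%). TMEM173, which encodes the adaptor STING, had 0.285 FPKM in H522, 0.628 in H661 and 0.0111 in H146, against 11.8 in KLE, 13.4 in HEC59, 6.49 in COV318, 24.4 in 1321N1 and 9.22 in H716. Its lung difference of -3.33 had a standard error of 0.46 and a limma adjusted p of 0.0611. IFIH1, the RNA sensor MDA5, was at 105 FPKM in H716, above the 23.2 of HEC59, although H716 was low for most members. MB21D1, the DNA sensor cGAS, was highest in H522 at 14 FPKM, and TREX1, which degrades cytosolic DNA, in 1321N1 at 11.3. IRF3 was even, from 5.88 in KLE to 13.2 in HEC59.

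A further list of 44 interferon-stimulated genes, 37 of them tested, was described beside the members, and the difference between the 2 lists was not tested. In lung lines none passed, 33 had lower and 4 higher means, and the median log2 difference was -0.71, with 7 lower (background 3.04%) and 0 higher at an unadjusted p under 0.05 by limma. In endometrial lines none passed, 30 had higher and 7 lower means, and the median was 0.47, with 2 higher (background 2.42%) and 0 lower at an unadjusted p under 0.05 by limma. The lung lines lay below all others for IFI16, NMI and GBP2, 3 of the 37 (background 2.23%). All 3 were under an FPKM of 1 in every lung line and passed the filter through other lines only. For NMI and GBP2 the nearest other line was itself under an FPKM of 1. NMI was at 0.140 in H146 and 0.384 in H716, and GBP2 at 0.0164 in H146 and 0.0272 in 1321N1. IFI16, a sensor of nuclear and cytosolic DNA, had 0.252 FPKM in H522, 0.0177 in H661 and 0.0370 in H146, against 38.0 in KLE, 31.3 in HEC59, 16.0 in COV318, 73.3 in 1321N1 and 1.43 in H716. LGALS3BP, a secreted glycoprotein, was at 87.4 in KLE, 78.7 in HEC59 and 122 in COV318, beside 29.6 in H146, the highest lung line. PSMB8, an immunoproteasome subunit, was at 26.5 in KLE, 28.8 in COV318 and 20.6 in H716 but at 0.229 in HEC59, and IFI30, a lysosomal reductase, was lowest in KLE at 0.432.

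IRF1, a transcription factor induced by interferon gamma, was low throughout, from 0.582 FPKM in H716 to 5.42 in KLE. IRF7, which amplifies type I interferon, reached 3.54 in HEC59, was listed at 0 in COV318 and was at most 0.988 elsewhere. The chemokine CXCL10 was above 1 FPKM only in KLE (1.44) and COV318 (8.36), and CCL5 only in HEC59 (9.29) and COV318 (6.02).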

How the data were processed

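The data are RNA sequencing of total RNA from 8 cell lines, 1 library each. The authors deposited FPKM per Ensembl gene for each line, per the file headers. CASAVA 1.4, TopHat2 2.0.8 and SAMtools 1.0 with build GRCh37 are named in the submitters' processing notes. The program behind FPKM, its annotation and its use of strand were not given in the sources used here. FPKM holds no read totals, so depth is known only relative to KLE, from the steps of values under 0.1, and no counting interval is given.

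Groups follow the labelled tissue. The deposited FPKM were turned into log2(FPKM + 1), a scale that understates differences of low genes. Genes that reached an FPKM of 1 in 2 lines or more went into limma 3.58.1 under R 4.3.3 (trend on, Benjamini-Hochberg over 15650 genes, threshold 0.05), with 3 lung lines against 5 and 2 endometrial lines against 6. The fit was tried on simulated data with the same normal spread for every gene. That spread was smaller than the median SD over the lines, 0.67 for all genes tested and 1.34 for the members. The simulation thus does not show how the fit performs at the spread of these data. Lines of a tissue are different tumours, and the p-values measure their spread, technical differences included. Single lines were compared with the median of the other 7 without a test.

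The members and all lists were chosen with earlier results of these data known. All 8 values are given for the 14 members with the widest ranges, the 4 and the 2 with the smallest p in the lung and endometrial comparisons, the 4 narrowest among those at an FPKM of 1 or more in all lines, STAT2, IRF9, and the IFITM, IFIT and ISG15-enzyme genes, with IFI35 and list genes added after their values were seen. Genes of other lists were named where they reached an FPKM of 1 in some lines but not in others, up to 5 per list. Alternatives were other pseudocounts, filters and scalings, a term for the read-step sets, and leaving out each line. Rescaling to equal totals left values above 100000 out of each total. KLE, 1321N1 and HEC59 each held 1 such value. Promoters came from RefSeq (GRCh38.p14) and neighbours and shared 50-base windows from GENCODE v29, without coordinates of the files' build. Some results on the pathway are not reported here.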

Additional observations from a re-analysis of the deposited data

Results flagged for a closer look

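For 8 of the 42 members, 1 line stood so far from the other 7 that the gap to the next line, as a share of the whole range on the log2(FPKM + 1) scale, was above Dixon's critical value for 8 samples. For normally distributed values chance gives such a gap in about 1 in 20 groups, and the lines are different tumours. Of the 40 members tested, 6 (15%) had such a gap, beside 1271 of all 15650 genes tested (8.12%), while MX2 and XAF1 had not passed the filter. COV318 stood apart for MX2 at 15.6 FPKM (next line 0.390, share 0.883), for IFI27 at 527 (next 15.5, share 0.555), for IFI44L at 37.1 (next 4.49, share 0.532) and for EPSTI1 at 7.22 (next 1.36, share 0.592). HEC59 stood apart for OAS2 at 14.9 (next 1.10, share 0.732), OASL at 14 (next 1.36, share 0.682) and XAF1 at 7.31 (next 0.674, share 0.757). H522 stood apart for IFI35 at 26.8 (next 3.76, share 0.615). In all 8 the line that stood apart was the highest.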

How the results depend on the processing

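The median member differences and those of SP100, TRIM38, PLSCR1, IRF9, IFITM1 and IFITM3 kept their direction under every alternative run, but members with lower endometrial means, 3 of 40, were 8 of 37 without HEC59. No paired analysis was possible because each line is a different tumour with 1 library. Of all genes, 4 passed in lung lines. That count was 1 without a filter, 11 with a pseudocount of 0.1, 2 with a pseudocount of 5, 11 rescaled to equal totals, 10 with upper-quartile scaling, 2 with a read-step set term, and 1 (without COV318) to 16 (without H146) leaving out 1 line, with 13 without H716, 8 without H661 and 2 without HEC59 or 1321N1. Members passing in lung lines numbered 0, but 1 with a pseudocount of 0.1 (TRIM38, -4.53, limma adjusted p = 0.0372) and 0 to 1 leaving out 1 line (SP100 without H716). The smallest adjusted p of a member ran from 0.0261 to 0.291. The median member difference of -1.71 was -2.03 with a filter at an FPKM of 5, -2.68 and -0.85 with pseudocounts of 0.1 and 5, -2.03 rescaled to equal totals, -1.52 with the set term, and -2.05 (without H716) to -1.50 (without HEC59) leaving out 1 line. The lung median of all genes, -0.02, was 0.15 rescaled to equal totals, 0.03 with upper-quartile scaling and 0.04 with quantile normalization.

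In endometrial lines the 1 gene passing was 20 without a filter, 4 with a pseudocount of 5 and 1 to 30 (without COV318) leaving out 1 line, with 5 without H146, 4 without KLE and 2 without HEC59. Members passing were 0 to 2 leaving out 1 line, 2 (IFITM1 and IFITM3) without COV318. Where 1 endometrial line is left, it is assumed to vary like the other lines. The smallest adjusted p of a member ran from 0.0375 to 0.998. The median member difference of 1.49 was 2.32 and 0.77 with pseudocounts of 0.1 and 5, and 1.04 (without HEC59) to 2.28 (without KLE) leaving out 1 line, with 2.03 without COV318.

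The span of mean member levels, 2.97, was 4.53 with a pseudocount of 0.1 and 1.77 with 5. H146 in place of H522 was the lowest line with a pseudocount of 5 or quantile normalization. HEC59 was above COV318 when rescaled to equal totals or quantile normalized. Members in all lines, 8 at an FPKM of 1, were 13 at 0.5 and 0 at 5, where 2 were in no line. With pseudocounts of 0.1 and 5, members past the single-line limit were 16 and 2 higher in KLE, 8 and 1 higher in 1321N1, and 14 and 0 lower in H146, 19 and 1 in H522, 14 and 0 in H661 and 14 and 0 in H716. With a pseudocount of 5, they were 13 higher in HEC59, 11 in COV318 and 0 in H146, and with 0.1, 3 lower in 1321N1. Rescaled to equal totals, 10 were lower in H522, 10 in H661, 7 in H716 and 1 in 1321N1. With a filter at an FPKM of 5, 0 were higher in H522 and in H146. The causes of these shifts were not tested.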

Other observations

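Some members were present where most of the set was low. H716, with a mean member level close to that of the lung lines, had PLSCR1 at 23.2 FPKM, IFIT5 at 7.90 and OAS1 at 3.53, and H146 had PLSCR1 at 14.7, USP18 at 6.44 and CMPK2 at 4.00. H661 had STAT2 at 24.4 FPKM and IFI6 at 20.7, beside IFITM3 at 0.253. In 1321N1, SP100 at 40.3 FPKM and UBE2L6 at 18.6 stood beside HERC5 at 0.0631 and RSAD2 and CMPK2 listed at 0.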
